A study of Mus musculus with 25 samples.

Results

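MicroRNA levels were compared between MetTrp53 and Met mammary tumours of female mice of the FVB strain, 15 of the 25 arrays of the series. The 8 MetTrp53 tumours carried the MMTV-Met transgene together with a floxed Trp53 allele opposite a wild-type one (Trp53fl/+), with Cre named in the design text. The 7 Met tumours carried MMTV-Met alone, so the transgene was shared by both groups. MMTV is the promoter of the mouse mammary tumour virus, active in mammary epithelium. The promoter that drives Cre is not given in the sources used here. Members were chosen by the genotype label. The other arrays held 8 tumours of Trp53fl/+ mice without the transgene (Trp53) and 2 pools of wild-type mammary gland. The arrays carry no probes for messenger RNA, so neither the transgene nor the state of the Trp53 alleles could be checked.

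The groups differed in more than genotype. Among MetTrp53 tumours 3 were spindloid, 1 intermediate, 1 an adenocarcinoma, 2 poorly differentiated adenocarcinomas and 1 had no stated pathology. Among Met tumours 3 were solid nodular carcinomas, 1 adenosquamous, 1 a scirrhous adenocarcinoma, 1 an adenocarcinoma and 1 spindloid. Nulliparous mice gave 6 MetTrp53 tumours and multiparous mice 2, whereas 6 Met tumours came from multiparous mice and 1 had no stated parity. All 3 spindloid MetTrp53 tumours came from nulliparous mice, and the spindloid Met tumour (Met tumour 2) came from a multiparous one. The comparison of the genotypes is given with all 7 Met tumours and without Met tumour 2. The titles give a different identifier to each of the 8 MetTrp53 and 7 Met tumours, but 6 identifiers to the 8 Trp53 tumours, of which 2 pairs share one. The labels do not say that an identifier is an animal. The p-values cover only the spread among arrays within a group, which may be technical in part. In the main fits that spread is pooled over all 4 groups of the series, the normal pools included.

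Met is the receptor tyrosine kinase of hepatocyte growth factor, and p53, the product of Trp53, is a transcription factor that restrains division after damage. A miRNA pairs with target messages mainly through its seed, bases 2 to 8 from its 5′ end, and lowers their output, so miRNAs of 1 seed share many targets. In mammary tissue the miR-200 family marks epithelial cells and represses Zeb1 and Zeb2, while miR-34a is transcribed under direct control of p53 and represses Met among other targets. Levels are log2 intensities after scaling of each array to its own 75th percentile over the probes well above background on all 25 arrays, with a floor at 3.60, and a value of 3.60 means at or below that floor. Of 1122 mouse miRNAs, 330 were tested, and each array detected between 220 and 334. A difference is MetTrp53 minus Met on the log2 scale, so 1 is a 2-fold difference, and the threshold was a Benjamini-Hochberg adjusted p under 0.05 in limma.

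The mature sequences of the miRNAs on which the results turn are given first, in the RefSeq GRCm38.p6 annotation, 5′ to 3′ with the seed in capitals. The miR-31 and miR-21 arms stood higher in MetTrp53 tumours, and the 2 arms of a hairpin have different seeds.
miR-31-5p: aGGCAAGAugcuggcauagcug
miR-31-3p: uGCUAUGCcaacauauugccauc
miR-21-5p: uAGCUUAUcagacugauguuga
miR-21-3p: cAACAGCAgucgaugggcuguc
The miR-31 arms lie at chr4:88910614-88910635 and chr4:88910577-88910599 on the minus strand, within the span of the lncRNA Gm49890. The miR-21 arms, listed as miR-21a in RefSeq, lie at chr11:86584120-86584141 and chr11:86584082-86584103 on the minus strand, within the span of the protein-coding gene Vmp1.
miR-221 and miR-222 share the seed GCUACAU and lie 572 bases apart on the minus strand of chromosome X.
miR-221-3p: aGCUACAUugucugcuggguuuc
miR-222-3p: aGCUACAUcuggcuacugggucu
miR-27a and miR-27b share the seed UCACAGU and differ by 1 base over their length, and are shown because they moved in opposite directions. miR-27a lies in a cluster with miR-23a at chr8:84208727-84208747 on the plus strand, and miR-27b lies at chr13:63300760-63300780, within the span of Aopep.
miR-27a-3p: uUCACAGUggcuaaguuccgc
miR-27b-3p: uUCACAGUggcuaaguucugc
miR-23a-3p: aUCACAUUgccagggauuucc
The lower miR-30 members printed here fall into 1 seed for the 5p arms, GUAAACA, and another for the 3p arms of miR-30a and miR-30e, UUUCAGU. miR-30c-2-3p, also lower and not printed, has the seed UGGGAGA. miR-30a lies at chr1:23272274-23272295 on the plus strand.
miR-30a-5p: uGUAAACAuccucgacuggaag
miR-30c-5p: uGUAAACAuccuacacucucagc
miR-30a-3p: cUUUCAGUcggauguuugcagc
miR-30e-3p: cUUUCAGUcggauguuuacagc
The miR-200 family has 2 seeds that differ in 1 letter, AAUACUG and AACACUG, and 2 loci, with miR-200b, miR-200a and miR-429 on the minus strand of chromosome 4 and miR-200c and miR-141 on the minus strand of chromosome 6.
miR-200b-3p: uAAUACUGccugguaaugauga
miR-200c-3p: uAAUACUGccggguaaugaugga
miR-429-3p: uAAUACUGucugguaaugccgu
miR-141-3p: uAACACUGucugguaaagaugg
miR-200a-3p: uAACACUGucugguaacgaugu
The last set holds single lower miRNAs, each with a seed of its own among those printed.
miR-34a-5p: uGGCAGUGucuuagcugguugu
miR-146b-5p: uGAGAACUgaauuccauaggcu
miR-148a-3p: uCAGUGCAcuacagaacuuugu
miR-34a lies at chr4:150068473-150068494 on the plus strand, miR-146b-5p at chr19:46342790-46342811 and miR-148a-3p at chr6:51269829-51269850.

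With all 7 Met tumours no miRNA passed: limma called 0 of 330 (0%), with a smallest adjusted p of 0.058. At an unadjusted p under 0.05 there were 61 (18.5% of those tested), 28 higher in MetTrp53 tumours (8.48%) and 33 lower (10%), and in no miRNA were the 8 and 7 levels free of overlap. Without the spindloid Met tumour 41 passed (12.4%). In MetTrp53 tumours 17 of these were higher (5.15%) and 24 lower (7.27%), 9 and 15 of them by 2-fold or more. Without it, 7 miRNAs (2.12%) had groups that did not overlap: both miR-31 arms, both miR-21 arms, both miR-30a arms and miR-30c-2-3p, the last with all MetTrp53 levels at the floor. That exclusion is one-sided, because the 3 spindloid MetTrp53 tumours stayed in. With the spindloid tumours of every genotype left out, a setting chosen after the data were seen, limma called 0 of 330 (0%), with 51 (15.5%) at an unadjusted p under 0.05. The counts also depended on single tumours. The count of 0 with all Met tumours was 25 without MetTrp53 tumour 3 and 11 without MetTrp53 tumour 5, and the count of 41 was 14, 15 and 20 without Met tumours 1, 6 and 3 and 26 without MetTrp53 tumour 7 or 8. The words higher and lower below refer to the 41 miRNAs that passed without Met tumour 2, unless another fit is named.

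**Figure D1:**
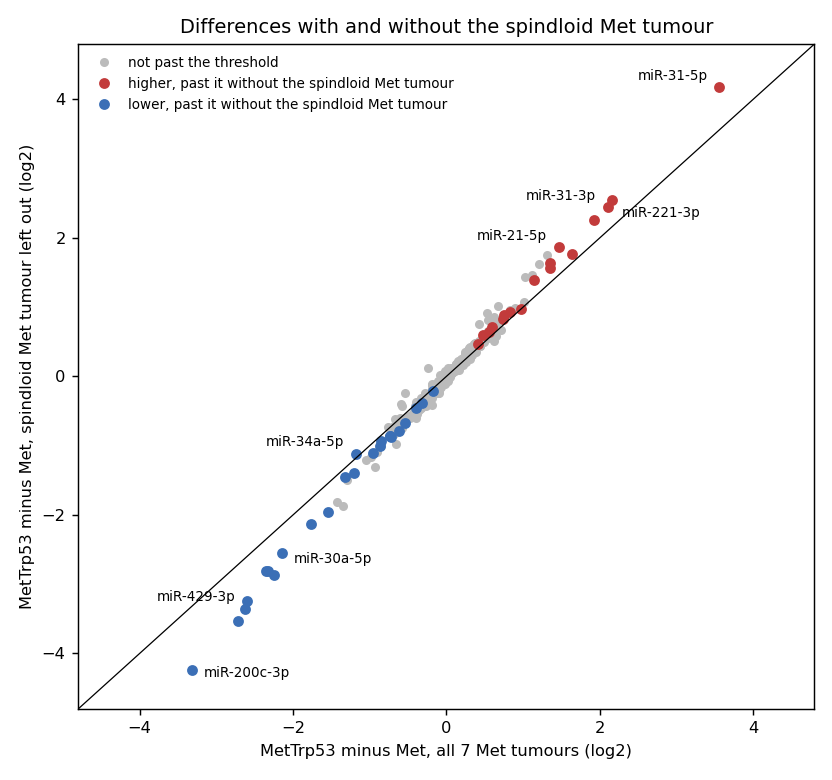
MetTrp53 minus Met difference of each of the 330 miRNAs (log2) with all 7 Met tumours, on the x axis, against the same without the spindloid Met tumour, on the y axis. Coloured points are the 17 higher and 24 lower miRNAs that passed without it, the diagonal marks equal values, and 39 of the 41 lie farther from 0 on the y axis than on the x axis. The 41 were chosen by the fit of the y axis, which favours larger values there, so that count is no separate result.

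miR-31, studied in human breast cancer cells as a suppressor of metastasis, showed the largest positive difference of the 330. miR-31-5p had levels of 6.86, 9.40 and 10.77 in MetTrp53 tumours (lowest, median and highest), against 3.60, 5.41 and 9.35 in Met tumours. Its highest Met level was that of the spindloid tumour, the other 6 lay between 3.60 and 6.63, and all 8 MetTrp53 tumours stood above those 6. The difference was 3.55 (SE 0.93, limma adjusted p = 0.058) with all Met tumours and 4.19 (SE 0.87, adjusted p = 0.00695) without the spindloid one. It was detected on 8 of 8 MetTrp53 arrays and 5 of 7 Met arrays, so the size rests in part on the floor. The other arm, miR-31-3p, had levels of 4.07, 6.28 and 7.64 in MetTrp53 tumours and 3.60, 3.60 and 6.04 in Met tumours, with 6.04 again in the spindloid tumour and 3.84 the next highest. Its differences were 2.10 (SE 0.56, adjusted p = 0.058) and 2.45 (SE 0.54, adjusted p = 0.00739).

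miR-21, which represses Pdcd4 and is raised in many carcinomas, gave a narrow MetTrp53 group. miR-21-5p levels were 12.51, 12.89 and 13.41 in MetTrp53 tumours, against 9.20, 11.64 and 13.89 in Met tumours. The spindloid Met tumour had the highest level of all 15, and the other 6 Met tumours, up to 11.97, lay below all 8 MetTrp53 tumours. The difference was 1.46 (SE 0.47, limma adjusted p = 0.0777) with all Met tumours and 1.87 (SE 0.39, adjusted p = 0.00695) without it. The opposite arm, miR-21-3p, had levels of 3.99, 4.27 and 4.33 in MetTrp53 tumours and 3.60, 3.60 and 4.46 in Met tumours, and was also above the 6 other Met tumours in all 8 MetTrp53 tumours (0.60 without the spindloid tumour, SE 0.13, adjusted p = 0.00739).

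The clustered pair miR-221 and miR-222, which repress the cell cycle inhibitor Cdkn1b (p27), stood higher together. miR-221-3p levels were 5.14, 7.51 and 8.30 in MetTrp53 tumours, against 3.89, 4.93 and 7.29 in Met tumours. The groups overlapped through MetTrp53 tumours 3 and 5, the poorly differentiated adenocarcinomas, at 5.35 and 5.14, and through the spindloid Met tumour at 7.29. The difference was 2.16 (SE 0.63, limma adjusted p = 0.0712) with all Met tumours and 2.55 (SE 0.60, adjusted p = 0.00937) without that tumour. miR-222-3p levels were 3.97, 6.34 and 7.35 in MetTrp53 tumours, against 3.60, 3.64 and 6.13 in Met tumours, with differences of 1.93 (SE 0.56) and 2.26 (SE 0.54, adjusted p = 0.00937).

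**Figure D2:**
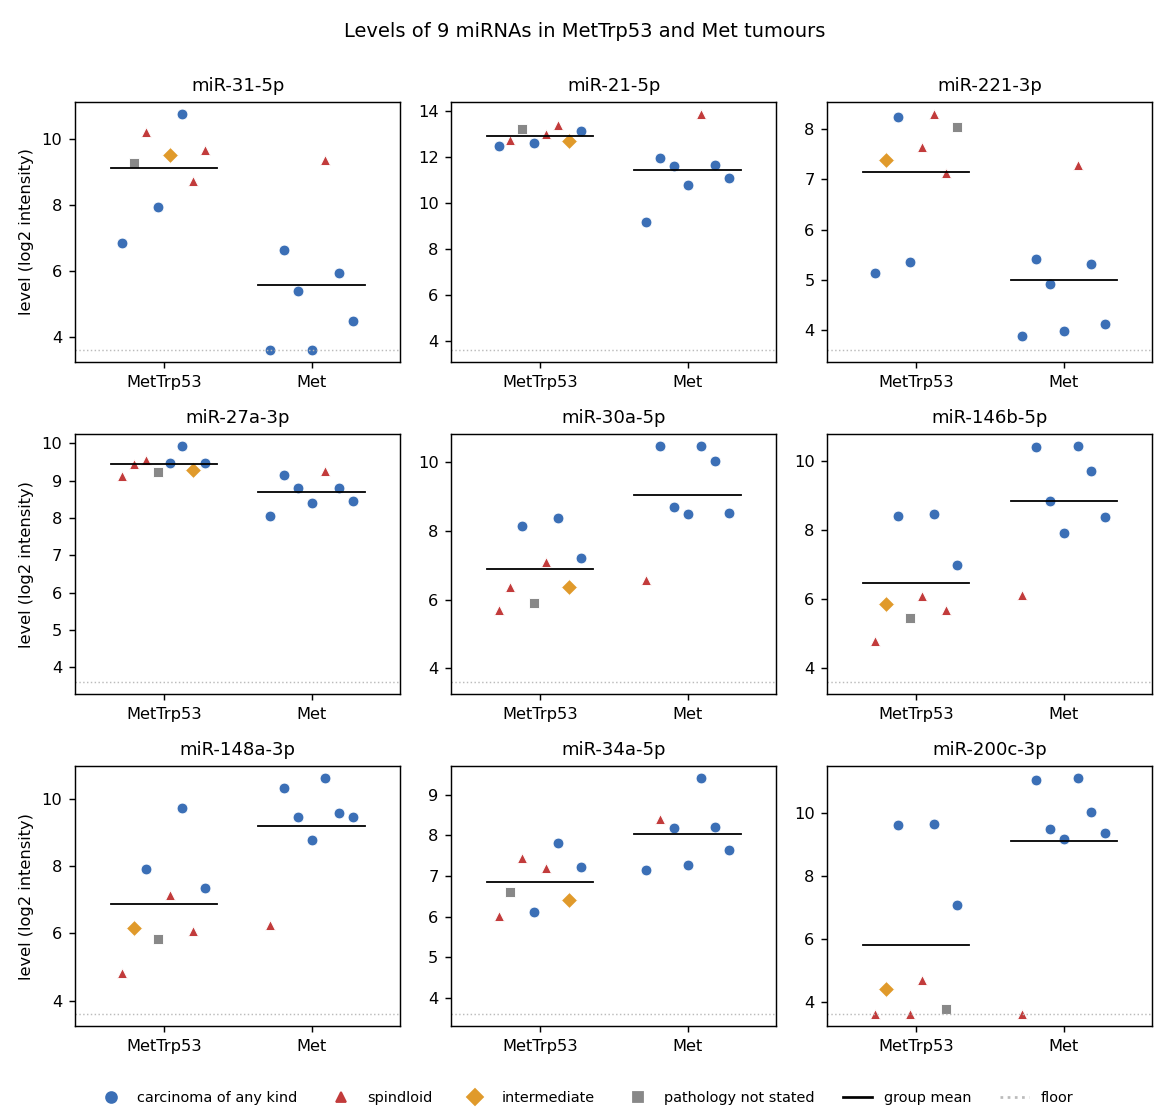
Level (log2 intensity) of 9 miRNAs in each of the 8 MetTrp53 tumours, left in each panel, and 7 Met tumours, right. Symbols give the pathology, bars the group mean and the dotted line the floor at 3.60. The spindloid Met tumour lies among the MetTrp53 tumours for miR-31-5p, miR-221-3p, miR-27a-3p, miR-30a-5p, miR-146b-5p, miR-148a-3p and miR-200c-3p, and above all of them for miR-21-5p and miR-34a-5p. Over all 330 miRNAs tested its level lay within the MetTrp53 range in 309, ties at the floor included, and no such count was made for the other Met tumours.

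The paralogs miR-27a and miR-27b, and their cluster partners miR-23a and miR-23b, passed in opposite directions. miR-27a-3p, of the miR-23a cluster on chromosome 8, had levels of 9.12, 9.47 and 9.93 in MetTrp53 tumours, against 8.04, 8.80 and 9.27 in Met tumours. The difference was 0.74 with all Met tumours (SE 0.22, limma adjusted p = 0.0712) and 0.83 without the spindloid one (SE 0.22, adjusted p = 0.0224), with 7 of 8 MetTrp53 tumours above the other 6 Met tumours. miR-23a-3p gave 0.60 (SE 0.20) and 0.72 (SE 0.19). miR-27b-3p had levels of 6.50, 7.00 and 9.03 in MetTrp53 tumours and 7.21, 8.77 and 10.14 in Met tumours, with differences of -1.21 (SE 0.43) and -1.40 (SE 0.43, adjusted p = 0.0362). miR-23b-3p, which targets Met in human cells, gave -1.32 (SE 0.43) and -1.46 (SE 0.45), with levels of 7.25, 8.07 and 10.10 in MetTrp53 tumours and 8.30, 9.54 and 11.19 in Met tumours. The differences of miR-23a and miR-27a against those of miR-23b and miR-27b were not tested against each other. Whether the probes tell miR-27a from miR-27b was not tested either.

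The other higher miRNAs came from several loci. miR-125a-5p and miR-99b-5p, from 1 cluster on chromosome 17 with let-7e, were higher by 0.64 (SE 0.19) and 0.88 (SE 0.25) without the spindloid Met tumour, while let-7e-5p did not pass (0.43, SE 0.17, limma adjusted p = 0.126). miR-125b-5p, of the same seed as miR-125a-5p, was higher by 1.57 (SE 0.48), with levels of 8.27, 9.69 and 10.53 in MetTrp53 tumours and 6.19, 8.45 and 9.60 in Met tumours. miR-350-3p was higher by 1.39 (SE 0.32) and miR-149-5p by 0.93 (SE 0.22), each with 7 of 8 MetTrp53 tumours above the 6 Met tumours. miR-1949 had levels of 7.84, 8.45 and 10.23 in MetTrp53 tumours, against 5.34, 7.01 and 8.92 in Met tumours, and was higher by 1.77 (SE 0.51, adjusted p = 0.0279). miR-16-5p, of a family that restrains the cell cycle, was higher by 0.46 (SE 0.14). miR-223-3p, a miRNA of myeloid cells, was higher by 1.64 (SE 0.49), with levels of 8.00, 9.83 and 10.07 in MetTrp53 tumours and 6.17, 8.22 and 9.78 in Met tumours.

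miR-296-5p, processed from the imprinted Gnas locus, had Met levels near the floor in all 7 tumours, the spindloid one included. Its levels were 3.60, 4.83 and 5.33 in MetTrp53 tumours, against 3.60, 3.64 and 3.74 in Met tumours, and 6 of 8 MetTrp53 tumours lay above all 7 Met tumours. The difference was 0.97 with all Met tumours (SE 0.29, limma adjusted p = 0.0712) and 0.97 without the spindloid one (SE 0.31, adjusted p = 0.0402). It was detected on 8 of 8 MetTrp53 arrays and 5 of 7 Met arrays.

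Of 9 tested arms of the miR-30 family, which is abundant in mammary epithelium, 7 were lower, beside 7.27% of all miRNAs tested: miR-30a-5p, miR-30a-3p, miR-30c-5p, miR-30c-2-3p, miR-30b-5p, miR-30d-5p and miR-30e-3p. miR-30a-5p had levels of 5.70, 6.72 and 8.36 in MetTrp53 tumours, against 6.58, 8.70 and 10.46 in Met tumours. All 8 MetTrp53 tumours lay below the 6 Met tumours that were not spindloid, whose lowest level was 8.47. The difference was -2.14 (SE 0.55, limma adjusted p = 0.058) with all Met tumours and -2.55 (SE 0.49, adjusted p = 0.00635) without the spindloid one. The 3p arm of the same hairpin, miR-30a-3p, gave -1.77 (SE 0.45) and -2.12 (SE 0.39). Its groups were also free of overlap without the spindloid tumour, but by 4.92 against 4.93. miR-30c-5p levels were 4.71, 5.84 and 7.13 in MetTrp53 tumours, against 5.05, 7.54 and 9.11 in Met tumours, a difference of -1.54 (SE 0.48) with all of them and -1.95 (SE 0.40, adjusted p = 0.00695) without the spindloid one. Of the rest of the family, miR-30b-5p (-0.79, SE 0.24), miR-30d-5p (-0.86, SE 0.27) and miR-30e-3p (-0.67, SE 0.19) were lower without that tumour. miR-30a-3p and miR-30e-3p differ by 1 base, and whether their probes tell them apart was not tested. miR-30e-5p, of the same seed as the other 5p arms, did not pass (-0.84, SE 0.32, adjusted p = 0.0935), and nor did miR-30c-1-3p. On no MetTrp53 array was miR-30c-2-3p well above background, and it was at least 1.13-fold higher in Met tumours (adjusted p = 0.0777 with all Met tumours and 0.027 without the spindloid one). miR-146b-3p also passed, but its MetTrp53 levels were never well above background and no fold can be given.

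miR-148a, abundant in the lactating gland and in milk, and miR-146b, a feedback regulator of NF-κB signalling, had lower levels in MetTrp53 tumours. miR-148a-3p levels were 4.82, 6.65 and 9.72 in MetTrp53 tumours, against 6.24, 9.46 and 10.61 in Met tumours. MetTrp53 tumour 3, a poorly differentiated adenocarcinoma, lay within the Met range at 9.72, and the other 7 lay below the 6 Met tumours that were not spindloid. The difference was -2.32 (SE 0.69, limma adjusted p = 0.0712) with all Met tumours and -2.82 (SE 0.63, adjusted p = 0.00739) without the spindloid one. miR-146b-5p levels were 4.79, 5.97 and 8.45 in MetTrp53 tumours and 6.13, 8.82 and 10.42 in Met tumours, with differences of -2.36 (SE 0.66) and -2.81 (SE 0.62, adjusted p = 0.00739).

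The miR-200 family, the epithelial miRNAs that repress Zeb1 and Zeb2, held the 3 largest negative differences of the 330, those of miR-200c-3p, miR-200b-3p and miR-429-3p. miR-200c-3p levels were 3.60, 4.56 and 9.64 in MetTrp53 tumours, against 3.60, 9.50 and 11.11 in Met tumours. The MetTrp53 tumours fell into separate ranges by pathology: the 3 carcinomas stood at 7.09, 9.64 and 9.61, and the other 5, including the 3 spindloid ones, between 3.60 and 4.71. The spindloid Met tumour was at 3.60, whereas the other 6 Met tumours ran from 9.18 to 11.11. The difference was -3.32 (SE 1.20, limma adjusted p = 0.112) with all Met tumours and -4.24 (SE 1.08, adjusted p = 0.0164) without the spindloid one. miR-141-3p, of the same locus, gave -2.60 (SE 0.86) and -3.25 (SE 0.77). From the chromosome 4 locus, miR-200b-3p gave -2.72 (SE 1.15) and -3.53 (SE 1.06), miR-429-3p -2.63 (SE 1.07) and -3.37 (adjusted p = 0.0319), and miR-200a-3p -2.25 (SE 0.83) and -2.86 (SE 0.76). These tissues are mixtures, and fewer cells of a type cannot be told apart here from less RNA per cell.

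miR-34a-5p had levels of 6.02, 6.90 and 7.81 in MetTrp53 tumours, against 7.15, 8.18 and 9.41 in Met tumours. Of the MetTrp53 tumours 4 lay below all 7 Met tumours, and the spindloid Met tumour, at 8.40, was the second highest Met tumour. The difference was -1.18 (SE 0.31, limma adjusted p = 0.058) with all Met tumours and -1.12 (SE 0.33, adjusted p = 0.0293) without that tumour, so it was one of 2 among the 41 miRNAs whose difference was not larger without it. The 41 were chosen by the fit without that tumour, which favours larger differences there. Of its family members, miR-34b-5p had a difference of 0.24 (SE 0.21) and miR-34c-5p, which comes from the same transcript as miR-34b, 0.36 (SE 0.22). Neither passed with or without the spindloid tumour. Both were near the floor, with medians of 3.83 and 4.08 in MetTrp53 tumours and 3.60 and 3.60 in Met tumours. miR-34b-5p was detected on 3 and miR-34c-5p on 4 of the 7 Met arrays.

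Smaller negative differences belonged to let-7b-5p (-1.10 without the spindloid Met tumour, SE 0.31, limma adjusted p = 0.027) and let-7c-5p (-1.01, SE 0.28), which differ by 1 base and have a shared cluster on chromosome 15, and to miR-26a-5p (-0.93, SE 0.30), which targets Ezh2. miR-181c-5p (-0.86, SE 0.23) and miR-181d-5p (-0.88, SE 0.27), clustered on chromosome 8, were near the floor in MetTrp53 tumours, with medians of 3.60 and 3.60, against 4.20 and 4.47 in Met tumours. The difference of miR-1839-3p was smaller (-0.38, SE 0.11).

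**Figure D3:**
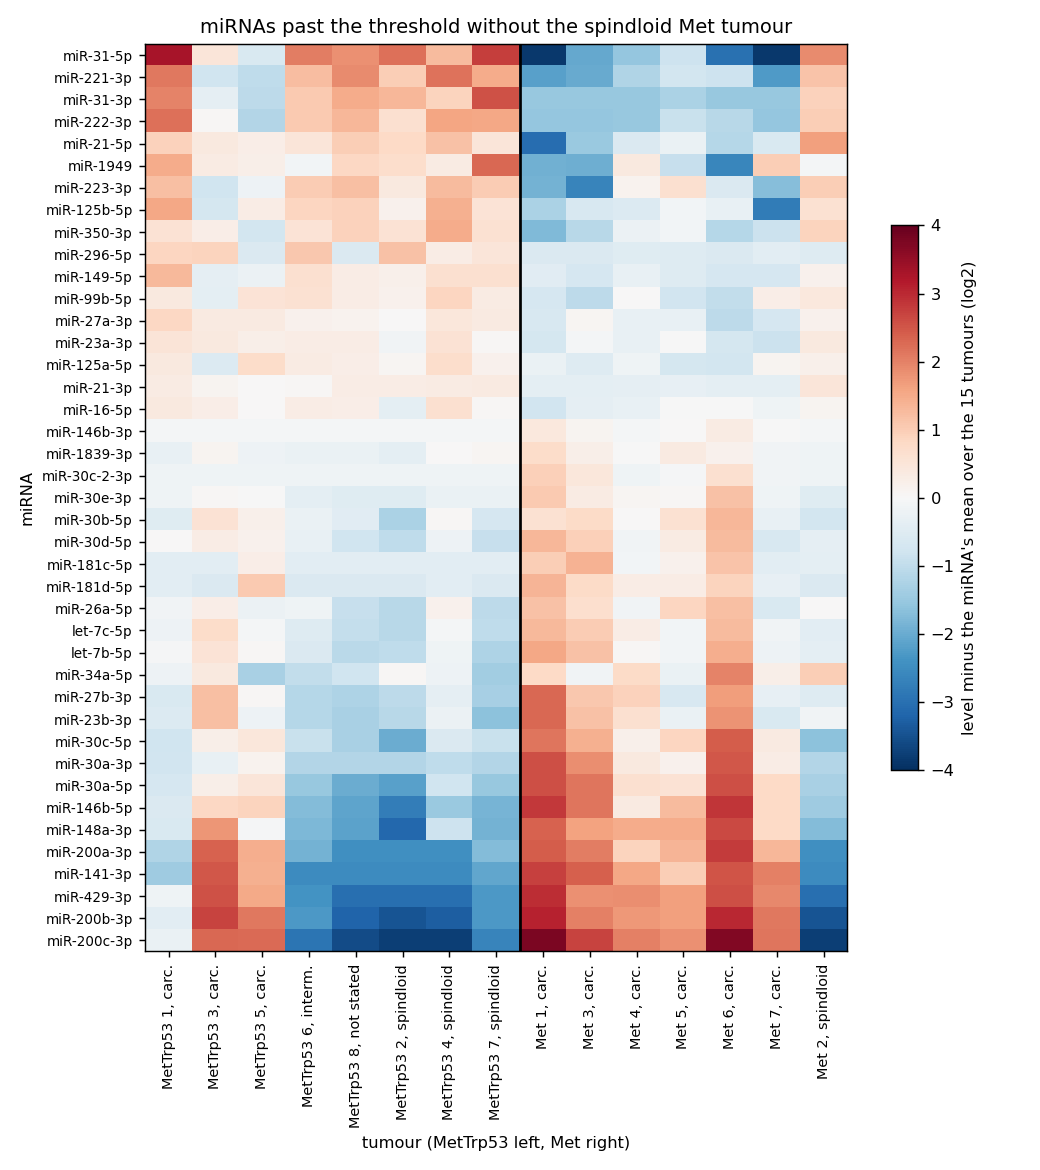
Level of the 41 miRNAs that passed without the spindloid Met tumour, as the deviation from each miRNA's mean over 15 tumours (log2), with MetTrp53 tumours left of the black line and Met tumours right of it, each in order of pathology. The miRNAs were chosen for this contrast, so the split of colours at the line is given by the choice. MetTrp53 tumours 3 and 5 have positive deviations for the miR-200 family, whereas the 3 spindloid MetTrp53 tumours and the spindloid Met tumour, at the far right, have negative ones.

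The MetTrp53 tumours varied among themselves along the same miRNAs. Tumours 3 and 5, the poorly differentiated adenocarcinomas, had the lowest miR-31-5p levels of the 8, 7.95 and 6.86, and the highest of miR-200b-3p, 9.73 and 9.16, miR-141-3p, 8.61 and 7.54, and miR-148a-3p, 9.72 and 7.92. Tumour 1, the adenocarcinoma, had the highest miR-31-5p level, 10.77, and a miR-200b-3p level of 6.63, between those of the other carcinomas and those of the rest. The intermediate tumour and the one of unstated pathology stood at 4.42 and 3.76 for miR-200c-3p, within the range of the 3 spindloid tumours, 3.60 to 4.71. miR-34a-5p did not follow that order: tumour 3 had the highest level of the 8, 7.81, and tumour 5 the second lowest, 6.12.

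Counts over lists of related miRNAs are read against the 5.15% higher and 7.27% lower of all 330 without the spindloid Met tumour, and against a median difference of 0 over all 330. In the luminal and lactation-linked list 6 of 7 were lower, with a median of -1.54 with all Met tumours and -1.95 without the spindloid one. All 5 miR-200 family members were lower, with medians of -2.63 and -3.37. Of the tumour-associated list 4 of 6 were higher, namely miR-31-5p, miR-21-5p, miR-221-3p and miR-222-3p, with medians of 1.69 and 2.06. These lists were drawn up with earlier results of these data known, so their counts describe and do not test them. With all 7 Met tumours 0 members of any list passed.

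The medians of the other lists are also given first with all Met tumours and then without the spindloid one. Of 9 let-7 members 2 were lower, with medians of -0.02 and 0.08. Of 9 members of the miR-17 cluster and its paralogs, linked to proliferation, 0 passed, with medians of -0.10 and -0.17. Of 6 tested p53-induced miRNAs, 1 was lower, miR-34a-5p, while 5 had positive differences, with medians of 0.08 and 0.09. Of those 5, miR-34b-5p and miR-34c-5p were near the floor. Among 8 miRNAs known to target Met, 3 were lower, miR-34a-5p, miR-23b-3p and miR-27b-3p, and the medians were -0.22 and -0.000545. The list of mesenchymal and stromal miRNAs held 1 higher of 11, miR-125b-5p, with medians of 0.67 and 1.01, and among relatives of miR-15 and miR-16 1 of 6, miR-16-5p, with medians of 0.11 and 0.12. In the miR-29 family 0 of 3 passed, with medians of 0.37 and 0.49, and in the other epithelial list 0 of 5, with medians of -0.66 and -0.97.

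Because spindloid tumours were more frequent among MetTrp53 tumours, carcinomas were also compared alone, 3 MetTrp53 against 6 Met. Limma called 0 of 330 (0%), with 19 (5.76%) at an unadjusted p under 0.05. miR-31-5p stood at 6.86, 7.95 and 10.77 in the MetTrp53 carcinomas, against 3.60 to 6.63 in the Met carcinomas, a difference of 3.58 (95% confidence interval 0.81 to 6.36, limma adjusted p = 0.773). miR-27a-3p gave 1.01 (0.45 to 1.57, adjusted p = 0.387) and miR-21-5p 1.71 (0.28 to 3.13). The difference of miR-200c-3p was -1.26 among carcinomas, with an interval from -3.85 to 1.32, and that of miR-34a-5p was -0.92, from -2.04 to 0.20. Of the other epithelial list, miR-205-5p, miR-96-5p and miR-183-5p had differences of -1.34, -0.93 and -0.66 over all tumours. Among carcinomas they had 0.46, 0.59 and 0.72, and none of the 6 values passed. miR-203-3p, of the same list, stayed negative, at -0.61 over all tumours and -0.40 among carcinomas. Among carcinomas miR-141-3p, miR-200a-3p and miR-429-3p were also negative, at -1.21, -0.94 and -0.84. With spindloid and intermediate pathology as covariates 0 of 330 passed, with 22 at an unadjusted p under 0.05, and miR-31-5p stood at 2.48. Over the 41 miRNAs, which were chosen for a contrast of these tumours, the median size of the difference was 0.84 among carcinomas (median SE 0.51), against 1.18 with all tumours (median SE 0.35).

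The comparison of spindloid tumours alone has 3 MetTrp53 against 1 Met tumour and no test. miR-31-5p stood at 8.73, 9.68 and 10.22 in the spindloid MetTrp53 tumours and 9.35 in the spindloid Met tumour. miR-34a-5p stood at 6.02, 7.19 and 7.45 in the spindloid MetTrp53 tumours and 8.40 in the spindloid Met tumour. miR-200c-3p was at 3.60, 3.60 and 4.71 in the MetTrp53 tumours, against 3.60 in the Met tumour. All 3 spindloid MetTrp53 tumours lay below the spindloid Met tumour for miR-34a-5p, which was not alone in this among the miRNAs named. miR-21-5p stood at 12.74, 13.04 and 13.41 against 13.89, and miR-146b-5p at 4.79, 5.70 and 6.09 against 6.13. Each such pattern rests on 1 Met tumour.

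Parity differed with genotype and, in MetTrp53 tumours, with pathology, since both multiparous MetTrp53 tumours were carcinomas. The multiparous Met tumours included the spindloid one, at 3.60 for miR-200c-3p and 6.58 for miR-30a-5p, below the other Met tumours in both. The multiparous differences therefore mix pathology with parity. Among tumours of multiparous mice, 2 MetTrp53 against 6 Met, limma called 1 of 330 (0.303%), with 20 (6.06%) at an unadjusted p under 0.05. The 1 was miR-296-5p, at 5.02 and 5.06 in the MetTrp53 tumours, against 3.60 to 3.74 in the Met tumours, higher by 1.38 (SE 0.17, adjusted p = 0.0149), a value that rests on 2 MetTrp53 tumours. miR-31-5p gave 3.60 (95% confidence interval 0.02 to 7.19), miR-30a-5p -1.12 (-3.28 to 1.03), miR-34a-5p -0.29 (-1.17 to 0.58) and miR-200c-3p -0.43 (-4.67 to 3.80). With parity as a covariate, in tumours with a stated parity, 0 of 330 passed, and miR-31-5p had a difference of 3.60 (SE 1.16, adjusted p = 0.278). Genotype, pathology and parity cannot be told apart in these groups.

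Each of the 5 slides held tumours of both genotypes, between 1 and 2 of each. miR-31-5p had within-slide differences of 7.17, 2.30, 2.41, 2.63 and 6.15 on slides 1 to 5. miR-30a-5p had -3.25, -2.60, -0.91, -2.11 and -2.57, and those of miR-34a-5p ran from -2.01 to -0.38. Each kept its sign on all 5 slides, which hold the same tumours for whose contrast these miRNAs were named. miR-27a-3p was at -0.10 on slide 2, which held the spindloid Met tumour, and positive on the other 4. With slide as a block 23 miRNAs passed without the spindloid Met tumour, all among the 41, and 0 with it.

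**Figure D4:**
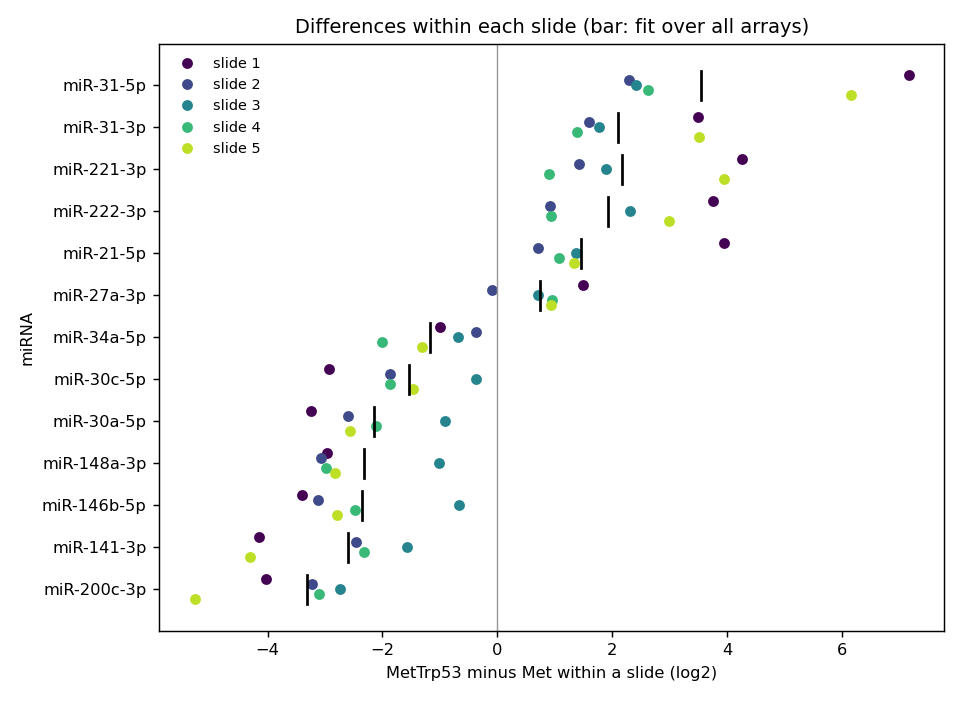
MetTrp53 minus Met difference (log2) of 13 miRNAs within each of the 5 slides (points, coloured by slide) and over all arrays (black bars). Of the 13, 12 keep 1 sign on all 5 slides, and miR-27a-3p is at -0.10 on slide 2. The 13 were chosen from miRNAs named for this contrast of the same tumours, so the agreement in sign is no separate test.

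MetTrp53 tumours were also set against the 8 Trp53 tumours, which carry Trp53fl/+ without the Met transgene. Limma called 0 of 330 (0%), with 23 (6.97%) at an unadjusted p under 0.05. These counts take the 8 Trp53 tumours as independent. With each pair that shares an identifier averaged and counted once, a setting chosen after the data were seen, 0 passed, with 26 at an unadjusted p under 0.05. Of the 41 miRNAs, 0 passed in that contrast. For Trp53 minus Met, which shares the Met tumours with the main comparison, 33 (10%) passed, and 35 with the pairs averaged. miR-31-5p had levels of 6.86, 9.40 and 10.77 in MetTrp53 tumours and 3.60, 9.26 and 10.45 in Trp53 tumours, a difference of 0.73 (limma adjusted p = 0.929). miR-34a-5p had 6.02, 6.90 and 7.81 in MetTrp53 tumours and 6.19, 6.58 and 7.49 in Trp53 tumours, a difference of 0.20. Its levels in the normal pools were 6.24 and 6.58. miR-30a-5p had 5.70, 6.72 and 8.36 in MetTrp53 tumours and 5.64, 6.56 and 8.43 in Trp53 tumours, and miR-221-3p 5.14, 7.51 and 8.30 in MetTrp53 tumours and 5.69, 8.39 and 9.38 in Trp53 tumours. The ranges of the 2 genotypes overlapped for each of these miRNAs. For miR-148a-3p the MetTrp53 minus Trp53 difference was 1.20 (adjusted p = 0.732), with a Trp53 median of 5.57.

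**Figure D5:**
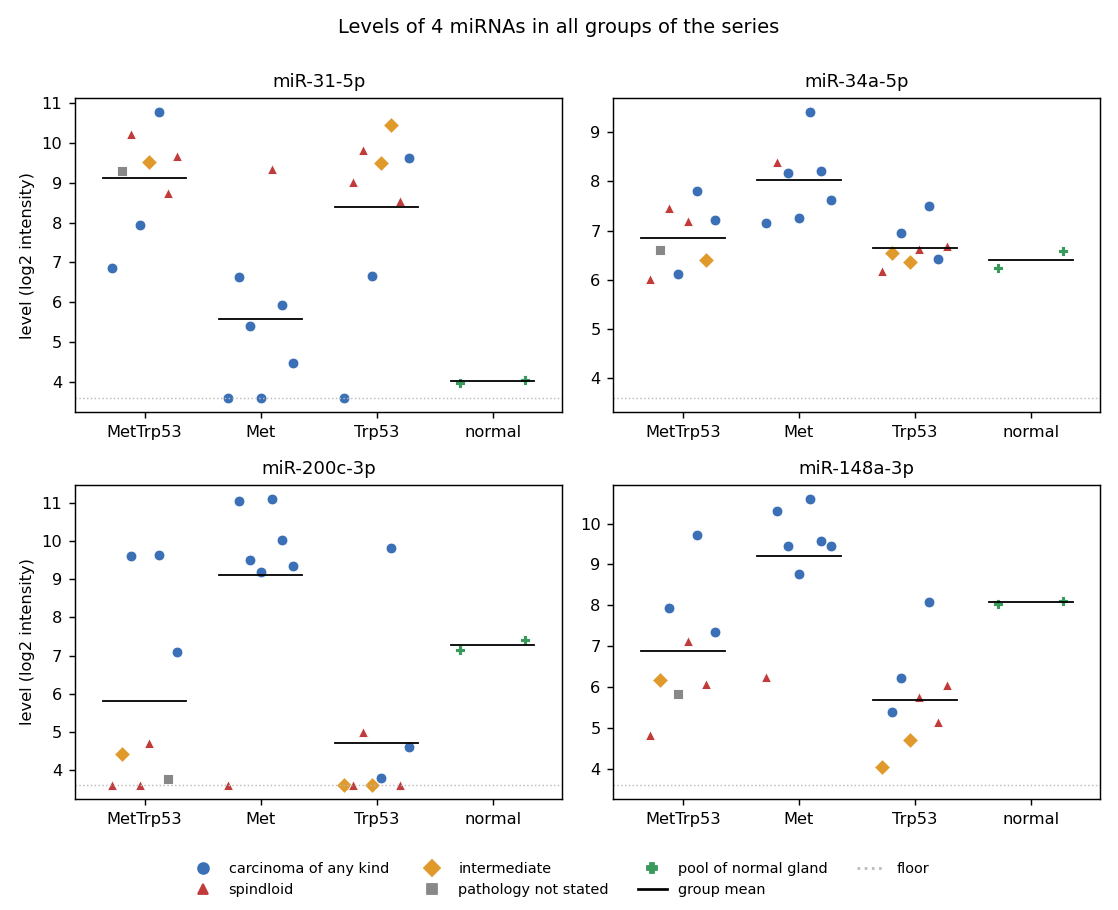
Level (log2 intensity) of 4 miRNAs in all groups, with MetTrp53, Met and Trp53 tumours and the 2 normal pools from left to right. Symbols give the pathology, bars the group mean and the dotted line the floor. For miR-34a-5p the Met tumours run from 7.15 to 9.41, against 6.02 to 7.81 in MetTrp53 tumours, and the pools stand at 6.24 and 6.58.

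Markers of other cell types moved with the comparison in part. Of 7 epithelial markers 5 were lower, all of the miR-200 family, and the markers' summed scaled intensity ran from 84.8 to 3333 in MetTrp53 tumours and from 86.3 to 5012 in Met tumours. All 7 were at the floor in MetTrp53 tumour 2, a spindloid one, and in the spindloid Met tumour 6 were at the floor and miR-205-5p stood at 3.76. The 4 mesenchymal markers had median differences of 1.16 with all Met tumours and 1.54 without the spindloid one, and 0 passed, with sums of 429.8 to 4283 in MetTrp53 tumours and 135 to 2680.1 in Met tumours. Of 6 leukocyte markers 1 was higher, miR-223-3p, with sums of 512 to 1462 in MetTrp53 tumours and 161 to 1664 in Met tumours. In the muscle, adipose, endothelial, erythroid and neural lists 0 members passed, with medians of -0.19, -0.51, 0.30, 0.01 and -0.29 with all Met tumours, and no liver marker was tested. Their part in the differences above was not tested.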

How the data were processed

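RNA of snap-frozen tissue, labelled with Cy3, was measured on Agilent miRNA arrays of 1 colour, per the labels' protocols. Per the file headers, the deposited scanner files hold an intensity for each spot from Feature Extraction 10.7.3.1 by Agilent, with background subtracted and no scaling across arrays. A second deposited file of the authors gives log2 values. The submitters' processing notes name RMA, with no version, and how the table was centred is not known (column medians 1.72 to 1.91). It served as an alternative.

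Outlier spots were left out and spots averaged per probe. Signals were divided by each array's 75th percentile over the probes well above background on all 25 arrays (279 to 909 units, a 3.26-fold range), floored at 0.0212 of it, taken to log2 and averaged over a miRNA's probes. A miRNA was tested if detected by the scanner software on at least 7 tumour arrays or both pools, which kept 330. Arrays detected 220 to 334 mouse miRNAs, and 0 spots were saturated. The number of arrays limits the precision.

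limma 3.58.1 in R 4.3.3 (lmFit, eBayes) was fitted to all 25 arrays with 4 groups and tested on simulated data. Beside the full fit, the fit without Met tumour 2 used 24 arrays. Tumours are numbered in accession order. miRNAs named were the 12 with the smallest p in each direction, up to 10 in each direction that passed without the spindloid Met tumour, list members by smallest p, and, chosen after their values were seen, let-7e-5p and the remaining ones of the 41. The members and lists were chosen with earlier results of these data known. Sequences came from RefSeq: 55 of 63 miRNAs looked up were matched by name or gene synonym. Alternatives covered scaling, background, floor, filter, slide, scan day, samples, pathology and parity.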

Additional observations from a re-analysis of the deposited data

Results flagged for a closer look

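In 7 of 56 sets of levels examined, Met tumour 2, the spindloid one, stood far from the other Met tumours, with a gap that took up most of the group's range. It was the highest of the 7 in miR-31-3p (6.04, next 3.84), miR-222-3p (6.13, next 4.25) and miR-21-3p (4.46, next 3.65). It was the lowest in miR-148a-3p (6.24, next 8.77) and, at the floor of 3.60, in miR-141-3p (next 7.11), miR-200c-3p (next 9.18) and miR-200a-3p (next 6.97). Among MetTrp53 tumours, tumour 5, a poorly differentiated adenocarcinoma, was the highest in miR-181c-5p at 4.31, with the other 7 at 3.60. Chance flags about 1 in 20 such groups, and the sets were taken from miRNAs of 1 comparison, so they are not independent. The 7 miRNAs flagged for Met tumour 2 were all among those named because they passed without that tumour. Its flags therefore cannot be weighed against that rate. Nor can the flag of miR-181c-5p, since with 7 levels at the floor any level above it leaves a gap of the whole range. Over all 330 miRNAs the level of Met tumour 2 lay outside the range of the other Met tumours in 86 and within the MetTrp53 range in 309. The 309 include ties at the floor. Any tumour of a group is its highest or lowest in some miRNAs, and the other Met tumours were not counted in this way. These 2 counts therefore do not set Met tumour 2 apart.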

How the results depend on the processing

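None of the 41 miRNAs that passed without the spindloid Met tumour changed sign under the settings in which it was tested. The differences of miR-205-5p, miR-96-5p and miR-183-5p, which never passed, were negative with all tumours and positive in 3 settings: 0.46, 0.59 and 0.72 in that order among carcinomas, 0.0709, 0.20 and 0.42 with pathology as covariates and 0.24, 1.09 and 1.16 in multiparous mice. For miR-203-3p, of the same list, the difference was -0.40 among carcinomas and 0.15 in multiparous mice. The multiparous Met tumours include the spindloid one, and both multiparous MetTrp53 tumours are carcinomas. For miR-205-5p, miR-96-5p, miR-183-5p and miR-203-3p the spindloid Met tumour stood at 3.76, 4.58, 3.97 and 3.60, below the other Met tumours in each. With all 7 Met tumours the count of miRNAs past the threshold was 0, and it was 16 with the authors' deposited table, 7 with a floor 4 times lower, 6 among miRNAs detected on all 25 arrays and 1 in multiparous mice only. All 16, 7, 6 and 1 were among the 41 that passed without the spindloid Met tumour. Leaving out 1 tumour gave 0 to 41, with 41 without Met tumour 2, 25 without MetTrp53 tumour 3, 11 without MetTrp53 tumour 5 and 0 without any other. Without the spindloid Met tumour the count of 41 was 18 with the percentile over all mouse probes, 26 with normexp, 26 among miRNAs detected on all arrays, 23 with slide as a block, 20 in a fit of the 14 arrays of these groups and 765 with no detection filter, which adds miRNAs that lie at the floor on most arrays. Of the 765, 31 were higher and 734 lower. That setting takes in 669 miRNAs detected on no array, so the 765 cannot be read as a count of miRNAs that differ. Leaving out 1 more tumour gave 14 to 51, with 14 without Met tumour 1, 20 without Met tumour 3, 15 without Met tumour 6 and 26 without MetTrp53 tumour 7 or 8. The cause of these moves was not tested. Of those 41, 11 also passed in each of the 27 or 28 alternative settings of the fit without the spindloid Met tumour, which leave in at least 2 of the 3 spindloid MetTrp53 tumours: miR-31-5p, miR-31-3p, miR-221-3p, miR-350-3p, miR-21-5p, miR-30a-3p, miR-30a-5p, miR-146b-5p, miR-148a-3p, miR-30c-5p and miR-141-3p. The other 30 were lost in 1 to 18 of them, miR-296-5p in 18 and miR-34a-5p in 8. With the spindloid tumours of every genotype left out, or among carcinomas only, 0 passed. Averaging the Trp53 tumours that share an identifier gave 0 and 44. The median difference of the 160 miRNAs detected on all arrays was 0.03, and -0.11 with the percentile over all mouse probes. No paired analysis was possible because the labels give no replicate numbers that pair tumours; the slides, which held both genotypes, were fitted as a block instead. Differences of miRNAs near the floor are limited by the signal over background, and sizes against groups at the floor rest on it.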
